A study of Populus trichocarpa with 18 samples.

Results

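The comparison is that of Populus trichocarpa (black cottonwood) protoplasts overexpressing PtrSND1-B1 at 25 h after transfection with the same protoplasts at 7 h. Its members are 6 of the 18 RNA-seq libraries of the series, 3 at each time, chosen by their labels alone. Within them the first gene model of each of 40668 loci was examined, and 23777 models with enough reads were tested. The protoplasts are wall-less single cells released from stem-differentiating xylem, the layer in which young wood cells enlarge and thicken their walls. They came from greenhouse plants and received plasmid DNA by the polyethylene glycol method. The libraries compared are PtrSND1-B1 with sGFP at 25 h and PtrSND1-B1 with sGFP at 7 h. A 12 h group of the same transfection, and groups given sGFP alone at 7, 12 and 25 h, are used beside them, each with 3 libraries. The green fluorescent protein sGFP is thus in every group. The labels name neither the promoter of the plasmids nor the share of cells transfected, so a library may mix transfected with untransfected cells in unknown proportion. The labels are silent on separate plants or isolations within a group, and the spread behind each p-value may therefore be technical.

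PtrSND1-B1 is a NAC-domain transcription factor of the family that, in Arabidopsis and in trees, switches on secondary wall formation. Factors of this family act on MYB factors and on genes for cellulose, xylan and lignin synthesis. A protoplast also loses its wall and its neighbours during isolation, and in culture plant protoplasts commonly lay down a new wall and lose features of their source tissue. The time course therefore holds both the hours under the transgene and the hours in culture. The sGFP libraries went through the same hours without PtrSND1-B1.

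The deposited table identifies genes only by locus identifiers, and none of these matched the RefSeq gene table used here. Pathway members and xylem markers could therefore not be picked out, and the labelled tissue was not checked against its markers. The loci named below are called by their identifiers, without function or sequence.

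The libraries of PtrSND1-B1 held 2690853 to 5123980 counts at 25 h and 4563708 to 6625569 counts at 7 h. At least 1 read was found at 27899 to 29713 loci at 25 h and at 30534 to 31735 loci at 7 h. The 10 most abundant loci took 4.07 to 6.42% of a library's counts at 25 h, against 2.82 to 3.27% at 7 h. Depth was mostly lower at 25 h, and the part of depth and of loci detected in the results below was not tested. In such bulk RNA, fewer cells of a kind and less RNA per cell cannot be told apart. CPM values are not scaled by transcript length. The levels of named loci are therefore not compared with each other, and rankings of loci by CPM below may favour longer transcripts.

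POPTR_0014s10060.1 was taken as the transfected gene. This assignment rests partly on its rise after transfection and does not test the labels independently. In CPM (library-size-scaled counts, adjusted by the trimmed mean of M-values) its level at 25 h was 1580, 736 and 418 CPM in replicates 1, 2 and 3, against 3370, 1950 and 1440 CPM at 7 h. The highest 25 h library lay above the lowest 7 h library, but each number was lower at 25 h. Blocked on replicate number, the log2 change was -1.39 (SE 0.337, edgeR adjusted p = 0.00578). Without the block it was -1.3 (adjusted p = 0.097). At 12 h it averaged 1320 ± 747 CPM (SD, n = 3). In sGFP libraries, where reads at this locus come without the transgene, the level was 2.09 to 3.1 CPM at 25 h and 3.59 to 10.3 CPM at 7 h. From 50 reads in all at 25 h and 88 at 7 h, the log2 change there was -1.51 (SE 0.494, edgeR adjusted p = 0.0306). The difference of the change between the constructs, PtrSND1-B1 minus sGFP, was 0.11 and did not pass.

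A large part of the transcriptome differed between the times in PtrSND1-B1 protoplasts. At 25 h, 3412 genes were higher and 3919 lower than at 7 h by edgeR's quasi-likelihood test at an adjusted p under 0.05, with the replicate number as a block. These are 14.4 and 16.5% of the genes tested, 30.8% together. Rises had a median of 1.13 on the log2 scale (quartiles 0.74 and 1.74) and falls a median of -1 (quartiles -1.75 and -0.62). At least 2-fold changes were fitted for 1975 of the rises and 1962 of the falls, and at least 4-fold changes for 645 and 744. Rises with a fitted change of at least 16-fold numbered 80, against 35 falls. Of all called genes, 5 rises and 11 falls had 0 reads at 1 of the times. Their fitted sizes are not set by reads alone. Against a floor of 3 reads over the group, the largest was at least 19.5-fold for a rise and 15.3-fold for a fall. The smallest change that passed had a size of 0.28 for a rise and 0.27 for a fall. Without the block 1931 genes were higher and 2063 lower. With library size as the only scaling the median of all genes moved to -0.176, and the split became 2252 higher and 5030 lower, so 30.9% of calls were rises against 46.5% with the main scaling.

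**Figure D1:**
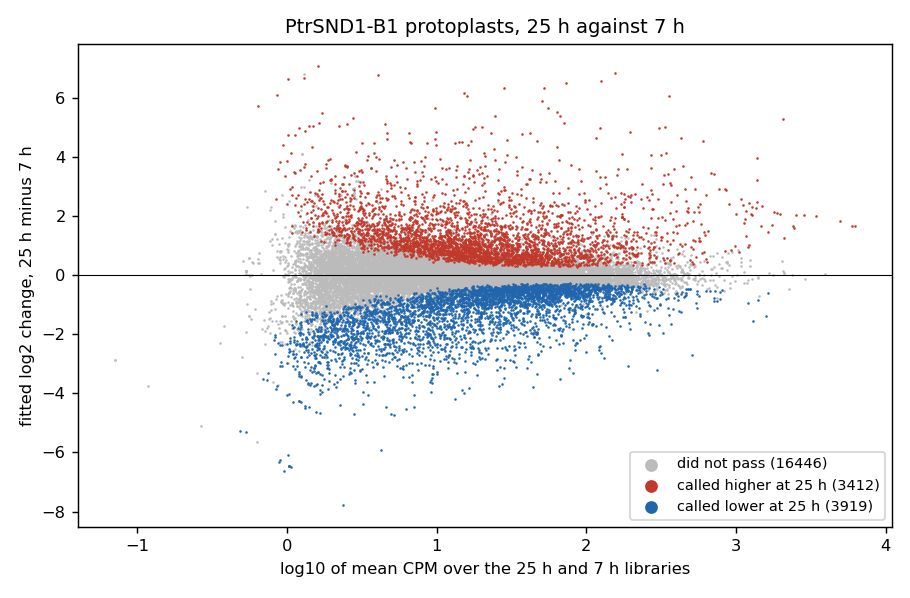
Fitted log2 change at 25 h against 7 h for each of 23777 genes in PtrSND1-B1 protoplasts, plotted over log10 of the mean CPM of the 6 libraries. The 3412 genes called higher are red, the 3919 called lower blue and the others grey. The called genes lie on both sides of 0 over most of the abundance range, with the widest spread among genes of low count.

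The replicate numbers gave similar changes. The fitted rises had medians of 1.11, 1.07 and 1 in numbers 1, 2 and 3, and the falls -0.97, -1 and -0.9, each from log2 CPM (prior count 2). The direction was the same in all 3 numbers for 98% of the rises and 98.5% of the falls, and for 55.3% of all genes tested. Rises and falls were called from these same libraries, which favours agreement between the numbers and separation of the times. The 25 h and 7 h libraries did not overlap for 2835 of the rises and 3111 of the falls. Over all genes tested, 16.8% had every 25 h library above every 7 h library and 18% had every one below. Across the 23777 genes the log2 changes of numbers 1 and 2 correlated with r = 0.729, those of 1 and 3 with 0.607 and those of 2 and 3 with 0.635. Genes are not independent replicates, and no p is attached to these values. Taken alone, a number gave 2854, 2858 and 2778 genes at least 2-fold higher and 2636, 2916 and 2952 at least 2-fold lower.

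Calls were made at every level of abundance. In the lowest tercile of genes by mean log2 CPM over the 18 libraries, 11% were called higher and 14.7% lower. In the middle tercile these shares were 16.4 and 14.5%, and in the highest tercile 15.6 and 20.2%. The called changes were larger among genes of low count, with medians of 1.66 and -1.95 in the lowest tercile against 0.89 and -0.62 in the highest. A small change passes the test more easily at high counts, so these medians are not a property of the genes alone.

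Several of the loci with the highest CPM at 25 h were among those that rose. Of the 10 loci with the highest mean CPM at 25 h, 9 were called higher than at 7 h and 0 lower, with changes of 0.03 to 5.28. Of the 10 highest at 7 h, 3 were called higher and 1 lower at 25 h. Of the 100 highest at 25 h, 56 were called higher and 3 lower, and of the 100 highest at 7 h, 21 higher and 20 lower. Over all genes tested 14.4% were called higher and 16.5% lower. The sets of 10 had 4 loci in common, and the sets of 100 had 63. Choosing loci by their level at 1 of the 2 times favours changes in that direction. The 3412 genes called higher held 28.8 to 35.4% of a library's counts at 25 h, against 12.4 to 13.9% at 7 h. The 3919 genes called lower held 11.1 to 12.1% at 25 h, against 22.2 to 23.5% at 7 h. These shares describe genes selected by the same difference. The sGFP libraries are part of the fit that called these genes, through the spread per gene, the number block and the filter, so their shares are not independent of the choice. In them the same 3412 genes held 27.5 to 34.3% at 25 h against 12.9 to 13.7% at 7 h, and the same 3919 held 10.3 to 12.8% at 25 h against 22.2 to 23% at 7 h. The shares of the constructs overlapped at both times.

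Few tested genes had no read at 1 of the times. At 7 h, 6 tested genes had 0 reads in all 3 libraries, and the 5 of them called higher had 14 to 34 reads at 25 h. At 25 h, 16 had 0 reads, and the 11 of them called lower had 17 to 79 reads at 7 h. Such genes passed the filter on low counts only through other groups, so nothing is read from how many were called. Against a floor of 3 reads over the group, the largest of these differences was at least 19.5-fold higher and at least 15.3-fold lower. The floor covers counting error only, because no molecular identifiers separate copies of a molecule.

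The 2 largest rises among loci that met the rule for naming were at POPTR_0001s46340.1 and POPTR_0011s16140.1. POPTR_0001s46340.1 had 478, 203 and 246 CPM in 25 h replicates 1, 2 and 3, against 1.93, 2.34 and 2.92 CPM at 7 h. Every 25 h library was far above every 7 h library, with replicate 1 the highest at 25 h. The group means were 309 ± 148 CPM at 25 h and 2.4 ± 0.497 CPM at 7 h (SD, n = 3 each), a fitted log2 difference of 6.85 with an SE of 0.527 (edgeR adjusted p = 4.76e-07). The 12 h level was between the other times, at 37.8 ± 33.4 CPM.

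POPTR_0011s16140.1 had 421, 156 and 167 CPM at 25 h, against 3.01, 2.5 and 1.67 CPM at 7 h. The groups again did not overlap, and replicate 1 was again the highest at 25 h. The means were 248 ± 150 CPM at 25 h and 2.39 ± 0.675 CPM at 7 h (SD, n = 3 each), a fitted log2 difference of 6.59 with an SE of 0.248 (edgeR adjusted p = 1.54e-09). The 12 h level was 17.9 ± 5.85 CPM. Both loci rose over each step. For POPTR_0001s46340.1 the log2 change was 3.69 over the first step, 7 to 12 h, and 3.15 over the second, 12 to 25 h. For POPTR_0011s16140.1 it was 2.88 and 3.71. All 4 of these steps passed, with edgeR adjusted p-values of 0.00104, 0.000396, 4.89e-05 and 3.5e-07 in the order given.

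The 2 largest falls by the same rule were at POPTR_0760s00200.1 and POPTR_0005s16950.1. Among all genes tested their fitted falls had ranks 32 and 38, while the 2 named rises had ranks 2 and 7 among rises. POPTR_0760s00200.1 had 1.88, 1.46 and 0.699 CPM in 25 h replicates 1, 2 and 3, from 15 reads in all, against 30.1, 21.7 and 23.6 CPM at 7 h, from 440 reads. Its 25 h libraries were all below its 7 h libraries, and the fitted log2 difference was -4.2 with an SE of 0.462 (edgeR adjusted p = 1.07e-05). The 12 h level was 8.17 ± 2.07 CPM (SD, n = 3).

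POPTR_0005s16950.1 had 3.35, 0.728 and 1.4 CPM at 25 h, from 22 reads in all, against 38.9, 24.2 and 23.8 CPM at 7 h, from 497 reads. The groups did not overlap, and the log2 change was -3.98 (SE 0.313, edgeR adjusted p = 5.69e-07). Its 12 h level was 8.4 ± 3.43 CPM (SD, n = 3). The counts of POPTR_0760s00200.1 differed from those of another locus by 5.55% of their sum over the 18 libraries, and that locus fell by 3.87 on the log2 scale. Whether the pair shared reads was not tested.

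**Figure D2:**
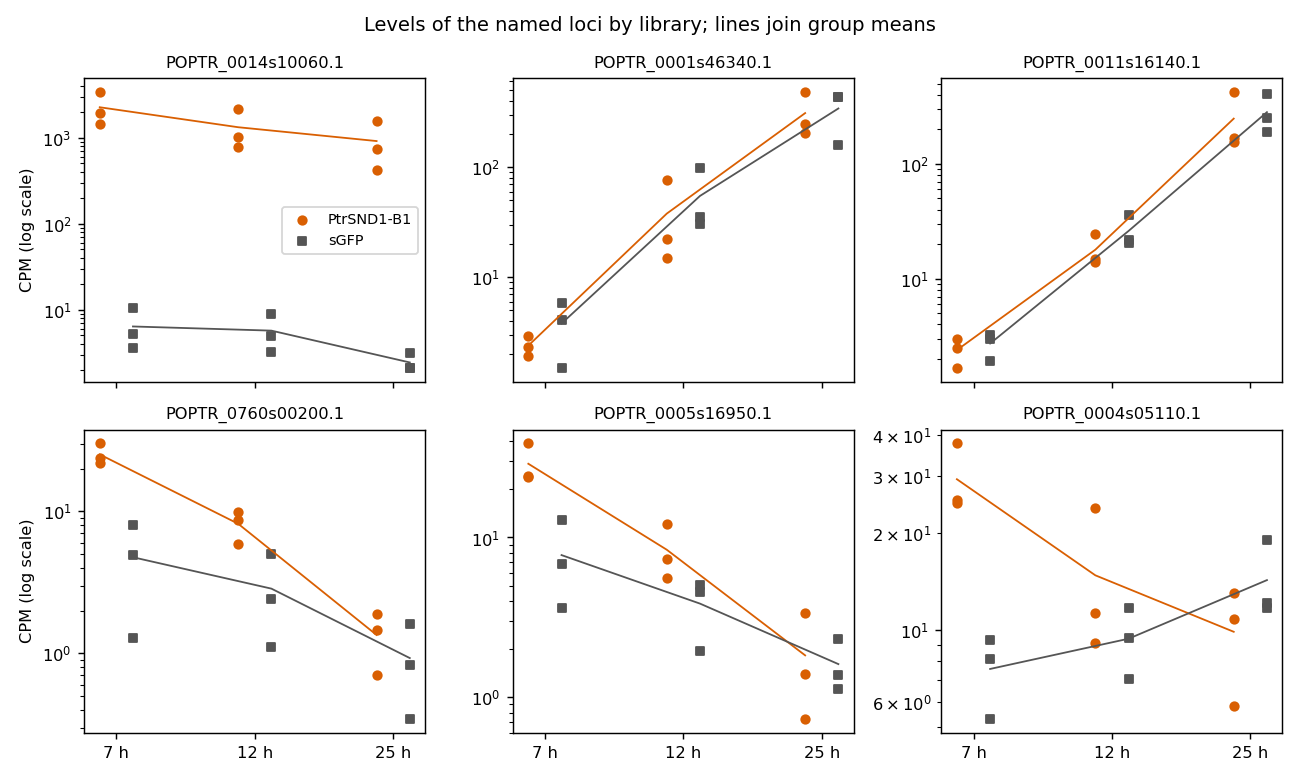
CPM on a log scale of the 6 named loci in each library, with 7, 12 and 25 h at equal spacing along the horizontal axis; circles are PtrSND1-B1 and squares sGFP libraries, and lines join group means of 3. The 2 rising loci run alike in both constructs, while the 2 falling loci and POPTR_0004s05110.1 start higher at 7 h in PtrSND1-B1 than in sGFP libraries.

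Both falling loci began at different levels in the 2 constructs. At 7 h POPTR_0760s00200.1 had 25.1 ± 4.37 CPM in PtrSND1-B1 and 4.75 ± 3.38 CPM in sGFP libraries (SD, n = 3), and at 25 h it had 1.35 ± 0.6 CPM in PtrSND1-B1 and 0.925 ± 0.639 CPM in sGFP libraries. POPTR_0005s16950.1 had 28.9 ± 8.58 CPM in PtrSND1-B1 and 7.78 ± 4.67 CPM in sGFP libraries at 7 h, and 1.83 ± 1.36 CPM in PtrSND1-B1 and 1.61 ± 0.629 CPM in sGFP libraries at 25 h. For both loci the libraries of the 2 constructs did not overlap at 7 h and overlapped at 25 h. In sGFP protoplasts both loci also fell, with log2 changes of -2.29 (SE 0.495) and -2.25 (SE 0.315, edgeR adjusted p = 0.00264 and 8.61e-05). The difference of the change between the constructs was -1.9 (SE 0.738) and -1.73 (SE 0.465), and neither passed (edgeR adjusted p = 1 for both). For the 2 rising loci the sGFP change was 6.4 (SE 0.511) and 6.6 (SE 0.248). The difference between the constructs was 0.45 (SE 0.71) and -0.01, which did not pass either (edgeR adjusted p = 1 for both). No SE is given for -0.01, because the SE used here is not usable for a change so near 0.

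The 12 h libraries share the model's spread per gene and its number block with the other groups, so they are not independent of the difference between 25 and 7 h. At 12 h, 705 genes were higher and 1003 lower than at 7 h, which are 2.97 and 4.22% of those tested and 7.18% together. At 25 h, 930 were higher and 1113 lower than at 12 h, which are 3.91 and 4.68%, and 8.59% together. Without the block these totals of 1708 and 2043 became 49 and 170. Leaving out 1 library gave 503 to 1452 for the first step and 1040 to 1765 for the second. The first total changed by over 1.5 times without any 7 h library, giving 798, 662 and 1109 without replicates 1, 2 and 3, or without 12 h replicate 1 (864) or 2 (503). The second did so without any 12 h library (1353, 1040 and 1170) or 25 h replicate 1 (1040) or 2 (1041).

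Among genes that differed between 25 and 7 h, the 12 h level mostly lay between. The mean CPM at 12 h was between those of 7 and 25 h for 3179 of the 3412 rises (93.2%), for 3607 of the 3919 falls (92%) and for 58% of all genes tested. Genes chosen for a gap between 7 and 25 h leave more room for a level in between. The higher shares therefore follow in part from the choice. Rises of at least 4-fold had a median log2 change of 1.46 in the 5 h of the first step and of 1.32 in the 13 h of the second. By replicate number the first step was the larger in number 1 alone, with 1.63 against 1.05, while number 2 had 1.16 and 1.22 and number 3 had 1.04 and 1.77. Falls of at least 4-fold had medians of -1.07 and -1.43. Each step shares the 12 h libraries with the other, so the values are not independent of each other.

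Some genes stood higher at 12 h than at either end. A contrast of 12 h with the mean of 7 and 25 h, chosen after the values were seen, gave 43 genes higher at 12 h and 0 lower (0.181 and 0% of those tested), with a median log2 difference of 1.44. All 43 had their highest mean at 12 h, and in 7 of them every 12 h library was above all 6 others of PtrSND1-B1. Over all 23777 genes tested, every 12 h library was above the 6 others for 87 and below them for 116, so the libraries' order alone did not favour the higher side. Before adjustment 2105 genes had a p under 0.05 in either direction, and DESeq2 called 74 higher and 5 lower. Without the block 0 genes passed. The count of 43 became 27 without 12 h replicate 1, 23 without 12 h replicate 2 and 4 with number 1 left out of every group.

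The replicate numbers did not move at the same pace in the first step. For the 645 rises of at least 4-fold, the median log2 change from 7 to 12 h was 1.63 in number 1, 1.16 in number 2 and 1.04 in number 3. The sGFP libraries, which share the fit that called these genes, gave 1.73, 1.07 and 0.97 for the same genes. From 7 to 25 h the medians under PtrSND1-B1 were 2.52, 2.3 and 2.72, and with sGFP 2.35, 1.91 and 2.88. Number 1 was thus ahead of the other numbers at 12 h in both constructs and not at 25 h. For the 744 falls of at least 4-fold, number 2 was the lowest at 12 h in both constructs, with medians of -1.03, -1.16 and -0.82 under PtrSND1-B1 and -0.88, -1.06 and -0.75 with sGFP. With 1 library per number and time these differences have no replicate check.

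**Figure D3:**
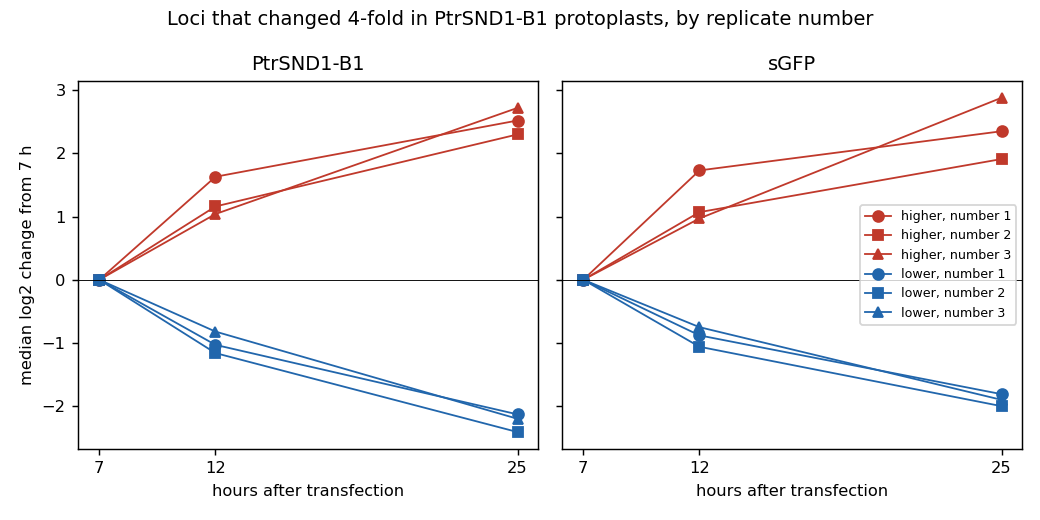
Median log2 change from 7 h, against hours after transfection, of the genes at least 4-fold higher (red, 645) or lower (blue, 744) at 25 h in PtrSND1-B1 protoplasts. Lines are replicate numbers, PtrSND1-B1 left and sGFP right; the rises of number 1 lie above the other numbers at 12 h in both panels.

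The change with time was set beside that of sGFP protoplasts, which were sampled in separate libraries at the same hours. There 3628 genes were higher and 3956 lower at 25 h than at 7 h, 15.3 and 16.6% of those tested and 31.9% together. The lists had 2687 rises in common, which are 78.8% of those under PtrSND1-B1 and 74.1% of those with sGFP. They had 3050 falls in common, 77.8 and 77.1% of the lists. Called in the opposite direction with sGFP were 0 of the rises and 3 of the falls. Of the changes of at least 4-fold, 603 of the 645 rises and 649 of the 744 falls were also called with sGFP. The fitted sign was the same in both constructs for 99.6% of the rises, 98.8% of the falls and 85.1% of all genes tested. Over all genes the 2 log2 changes correlated with Pearson's r = 0.889 and Spearman's rho = 0.869 across 23777 genes. The constructs share times, replicate numbers and the model's spread per gene, so these values describe the libraries and carry no p.

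**Figure D4:**
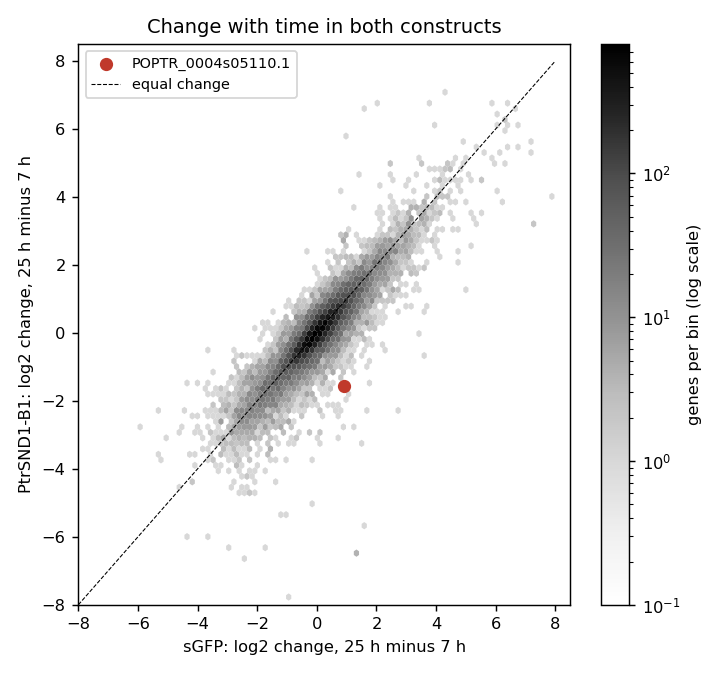
Log2 change at 25 h against 7 h in PtrSND1-B1 protoplasts (vertical) over that in sGFP protoplasts (horizontal), as genes per bin, for 23777 genes; the dashed line marks equal change. Most genes lie along the line, and POPTR_0004s05110.1 is at -1.57 with PtrSND1-B1 and 0.9 with sGFP.

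The sizes of the changes were set side by side as well. The rises under PtrSND1-B1 had a median of 1.13 there and of 1.03 with sGFP, and the falls had a median of -1 under PtrSND1-B1 and of -0.87 with sGFP. The falls of at least 4-fold had medians of -2.48 under PtrSND1-B1 and -2.2 with sGFP, with a median difference of -0.36 between constructs and a median SE of 0.649 for that difference. For the rises of at least 4-fold the medians were 2.62 under PtrSND1-B1 and 2.6 with sGFP. These genes were chosen for their change in the PtrSND1-B1 libraries, which favours the larger value there. Over all genes the difference had a median SE of 0.35, so for a typical gene a 2-fold difference between constructs is under 3 standard errors, and genes that did not pass are not shown to change alike.

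A single gene passed the test of that difference, and it is named for that reason. POPTR_0004s05110.1 had 13, 5.82 and 10.8 CPM in PtrSND1-B1 25 h replicates 1, 2 and 3, against 37.8, 24.7 and 25.3 CPM at 7 h. In sGFP libraries it had 19, 11.7 and 12.1 CPM at 25 h, against 9.29, 8.14 and 5.3 CPM at 7 h. It was thus lower at 25 h in each PtrSND1-B1 number and higher in each sGFP number, and neither construct's times overlapped. The log2 change was -1.57 (SE 0.227, edgeR adjusted p = 0.00012) with PtrSND1-B1 and 0.9 (SE 0.232, adjusted p = 0.00848) with sGFP. The difference was -2.47 (SE 0.324, edgeR adjusted p = 0.0395), the only 1 of 23777 (0.00421%) to pass, while DESeq2 called 5. In the edgeR fit 539 genes had an unadjusted p under 0.05, a share below the 0.05 that a calibrated test gives when no gene differs. The number block is the same at every time, so differences between numbers at a single time stay in the spread. How far this lowered the count was not tested. The difference at POPTR_0004s05110.1 was between -2.7 and -2.3 in 21 other settings, but its adjusted p was over 0.05 in 12 of them. The adjusted p was 1 without the block and 0.0558 to 0.304 in the 10 of 12 omissions of a single library that ended the call. The call held without PtrSND1-B1 25 h replicate 3 (adjusted p = 0.0234) and without sGFP 7 h replicate 2 (adjusted p = 0.028).

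With a term for each pair of a time and number, which compares the constructs inside pairs, 2 genes had a higher and 14 a lower change under PtrSND1-B1. The 14 include POPTR_0004s05110.1 (difference -2.47, SE 0.281, edgeR adjusted p = 0.00236). In that fit 1880 genes had an unadjusted p under 0.05, against 539 with the number block. The fit with the number block gave the calls of these 14 with time. Under PtrSND1-B1, 9 were called lower and 2 higher, where 16.5% of all genes tested were lower and 14.4% higher. With sGFP, 1 was called lower and 7 higher, where 16.6% of all genes tested were lower and 15.3% higher. Their median change was -1.13 under PtrSND1-B1 and 0.73 with sGFP. The 14 were picked for a lower change under PtrSND1-B1, which favours such counts and medians.

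Loci next to each other in the order of their locus numbers tended to be called together. Of the tested neighbours directly beside a locus called higher, 29.2% were called higher and 11.7% lower. Beside a locus called lower, 26% were called lower and 9.72% higher. At 10 places from a rise 14.5% were called higher and 17.2% lower, and at 10 places from a fall 17% were called lower and 14.2% higher. Over all genes tested 14.4% were called higher and 16.5% lower. The order of loci was taken from the identifiers, without coordinates, and similarity of sequence between neighbours was not available.

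**Figure D5:**
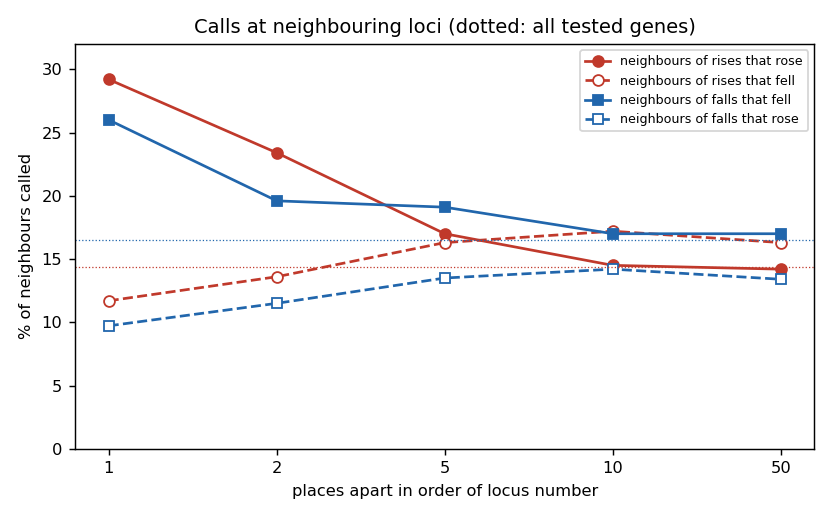
Share of tested loci called higher or lower, in percent, at 1, 2, 5, 10 and 50 places (not to scale) from a locus called higher (red) or lower (blue) at 25 h in PtrSND1-B1 protoplasts. Filled symbols are the same direction, open symbols the opposite, dotted lines all tested genes (14.4 and 16.5%); direct neighbours reach 29.2 and 26% in the same direction.

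Some neighbouring loci that moved together had equal or nearly equal counts. The longest run of consecutive tested loci with the same call held 13 loci, all called higher, with log2 changes of 1.79 to 2.08. In PtrSND1-B1 25 h replicate 1, 5 of the 13 had exactly 526 reads. The longest run of falls was 10 loci, with changes of -4.74 to -1.75. Of 15130 pairs of tested direct neighbours, 108 differed by at most 2% of their summed counts, 202 by at most 5% and 508 by at most 10%. In 98 of those 508 pairs both were called in the same direction, while of all 15130 pairs both were called higher in 618 and lower in 663. Among the 14622 pairs that differed by more than 10%, 27.3% of the neighbours of rises rose and 25.1% of the neighbours of falls fell. Loci with nearly equal counts may not be separate measurements, because how reads with more than 1 match were counted is not given in the sources used here. With 1 locus kept of each run of near-equal neighbours, 3368 genes were higher and 3852 lower at 25 h.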

How the data were processed

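The values the authors deposited are raw read counts of gene models in 18 libraries. Per the submitters' processing notes TopHat and edgeR were used, with neither role nor version stated. The sources used here do not give build, annotation, counting tool or strandedness, so counts of close copies, overlapping genes and antisense partners are uncertain. Of 45033 models the first of each of 40668 loci was used. Libraries were grouped and numbered by their titles. Counts were analysed in edgeR 4.0.16 (R 4.3.3): filterByExpr left 23777 models, TMM factors were 0.797 to 1.09, and a quasi-likelihood model of the 6 groups with the replicate number as a block was fitted to all 18 libraries (10 residual degrees of freedom). Calls had a Benjamini-Hochberg adjusted p under 0.05, and adjusted p-values come from this test unless DESeq2 1.42.0 is named. SE is the size of the log2 change divided by the square root of F, which is not usable for a change very near 0. The code was tested on simulated data.

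Replicate numbers were compared by correlating deviations from group means over log2 CPM (prior count 2). The replicate number was a block because the comparison was defined within it. Same-numbered 25 h and 7 h libraries had correlations of 0.102, 0.365 and 0.368 for numbers 1, 2 and 3. That these libraries belong together rests on such values alone, all over the 0.1 set for pairing. Number 1 was barely over it, and 25 h replicate 1 correlated better with 7 h replicate 2 (0.185). Between libraries of the same PtrSND1-B1 group the chi-square statistic was 7.9 to 34.2 times its degrees of freedom, over models with at least 20 reads, so none was treated as a repeat. Loci qualified for naming if they were called in the main fit and their log2 CPM changed in the same direction in all 3 numbers. They also needed a mean of at least 20 CPM in the higher group and more than 3 reads in the lower. The 2 largest rises and falls were named (1913 and 2221 qualified). Gene lists and markers by product name were planned and could not be applied, since 0 identifiers matched the 34621 RefSeq genes (assembly P.trichocarpa_v4.1). The comparison, the rules and the lists were chosen with earlier results of these data known. Alternatives were no block, a term per pair, fewer libraries, RLE, library size, no filter, DESeq2, each library left out, all models, number 1 left out and near-equal neighbours merged to 1 locus.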

Additional observations from a re-analysis of the deposited data

Results flagged for a closer look

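The change from 7 to 25 h at POPTR_0004s05110.1 differed between the constructs by -2.47 on the log2 scale, PtrSND1-B1 minus sGFP, with a fall in 3 of 3 PtrSND1-B1 numbers and a rise in 3 of 3 sGFP numbers. It is listed because this difference passed edgeR's test of the difference itself (adjusted p = 0.0395). In 12 of 21 other settings the difference kept its direction but did not pass.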

How the results depend on the processing

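The 4 loci named for the largest rises and falls kept their direction and their call in all 16 alternatives each, with log2 changes of 6.38 to 7.11, 6.27 to 6.83, -4.55 to -3.73 and -4.5 to -3.77 for POPTR_0001s46340.1, POPTR_0011s16140.1, POPTR_0760s00200.1 and POPTR_0005s16950.1. The transfected locus lost its call without the block only. Without the replicate block the counts were 1931 higher and 2063 lower at 25 h against 7 h, 49 over 7 to 12 h, 170 over 12 to 25 h, 0 for the difference between constructs and 0 for 12 h against the other times. With only the 6 libraries of a contrast the falls from 7 to 25 h numbered 2428 and the calls over 12 to 25 h 321, while those over 7 to 12 h numbered 2322, and with only the 9 PtrSND1-B1 libraries the steps gave 923 and 1051 and the 12 h contrast 24. Library size alone gave 2252 rises. Leaving out number 1 altogether gave 2182 rises and 2353 falls, 241 and 575 over the steps, 0 for the difference and 4 for the 12 h contrast. For the difference between constructs, 16 genes passed with the term per pair, 2 without the low-count filter and 5 with DESeq2, and DESeq2 gave 79 for the 12 h contrast. Leaving out single libraries gave 2502 to 2980 rises and 2953 to 3495 falls, 503 to 1452 and 1040 to 1765 over the steps, 0 to 1 for the difference and 23 to 57 for the 12 h contrast. The cause of these shifts was not tested. Fits that leave libraries out also hold fewer samples. Low-count changes are the least certain. All models, the omission of number 1, the merging of neighbours and the 12 h contrast were chosen after seeing the data. Alternatives planned for gene lists were not run, since the lists could not be applied.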
